A study of Mus musculus with 14 samples.

Results

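The genes described here are 10 transcription factor genes of the basic helix-loop-helix (bHLH) family, 7 proneural factors (Atoh1, Neurod1, Neurod2, Neurod6, Neurog1, Neurog2 and Olig3) and 3 E proteins (Tcf3, Tcf4 and Tcf12), out of 41381 genes with a value in the series. They form a list set by gene name and function, drawn up with earlier results of these data known, and all 10 passed the filter on low values (a value of 1 or more in 4 or more libraries, in TPM, a share of all transcripts scaled for length) that left 17325 genes to test. Their transcripts were measured by RNA sequencing (RNA-seq) in 14 libraries of mouse cerebellar granule neuron progenitors (GNPs) of postnatal day 7. Of these, 5 were labelled WT (no Cre), 5 Het (Atoh1-Cre::Chd7 f/+) and 4 Hom (Atoh1-Cre::Chd7 f/f). The study gives its WT GNPs as Chd7 f/f, so they carry the floxed alleles without the driver. Chd7 encodes an ATP-dependent chromatin remodeller, and the study asked which genes depend on it in these cells. The Atoh1-Cre driver acts in the granule cell lineage, less efficiently in the posterior lobe by the study's account, and was present in the Het and Hom groups but not in the WT group, so in any contrast with WT the presence of the driver and the loss of Chd7 cannot be told apart. The strain is given as C56Bl6/J for part of the libraries and as C57BL/6 for the others, and the labels do not say whether libraries came from separate animals or pools, so p-values measure the spread between these libraries, which may be technical.

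A proneural bHLH factor binds DNA as a dimer with a widely expressed E protein, usually at a short palindromic site called an E-box (CANNTG). Id proteins have the helix-loop-helix but no basic DNA-binding part and take E proteins out of such dimers, and Hes and Hey proteins repress proneural genes. In the cerebellum, Atoh1 specifies the rhombic lip lineage and keeps GNPs in their dividing state in the external granule layer, and Neurod1 rises as these cells leave the cell cycle and become granule neurons. A level of Atoh1 beside a level of Neurod1 is therefore a usual way to place a granule cell population between progenitor and neuron.

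Sequences just upstream of the start are shown for the 3 members whose levels passed the test described below, Neurod1, Neurod6 and Olig3, and for Atoh1, the progenitor factor they are set against. They are RefSeq promoter windows of the GRCm38.p6 build, cut where the annotated transcripts begin, written 5′ to 3′ on the strand of the gene, with every CANNTG in capitals. The stretches lie at chr2:79456752-79456886 (Neurod1, minus strand, 135 bases), chr6:55681264-55681513 (Neurod6, minus strand, 250 bases), chr10:19356289-19356532 (Olig3, plus strand, 244 bases) and chr6:64728875-64729124 (Atoh1, plus strand, 250 bases).
Neurod1: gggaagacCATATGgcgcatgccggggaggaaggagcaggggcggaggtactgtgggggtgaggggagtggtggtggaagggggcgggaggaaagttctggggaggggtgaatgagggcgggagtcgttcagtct
Neurod6: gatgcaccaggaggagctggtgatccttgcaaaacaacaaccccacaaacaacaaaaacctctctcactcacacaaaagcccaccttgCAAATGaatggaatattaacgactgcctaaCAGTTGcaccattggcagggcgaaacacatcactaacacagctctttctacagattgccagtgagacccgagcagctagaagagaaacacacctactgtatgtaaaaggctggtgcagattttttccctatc
Olig3: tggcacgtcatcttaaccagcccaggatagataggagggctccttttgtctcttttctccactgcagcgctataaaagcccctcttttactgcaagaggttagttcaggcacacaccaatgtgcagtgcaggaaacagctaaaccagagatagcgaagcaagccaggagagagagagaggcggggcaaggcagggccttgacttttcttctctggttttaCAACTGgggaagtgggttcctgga
Atoh1: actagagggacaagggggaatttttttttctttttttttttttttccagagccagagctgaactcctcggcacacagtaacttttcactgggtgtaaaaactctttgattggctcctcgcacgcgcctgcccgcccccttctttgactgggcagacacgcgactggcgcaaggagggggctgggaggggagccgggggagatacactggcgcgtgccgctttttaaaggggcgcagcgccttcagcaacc
The Neurod1 stretch holds 1 such site (CATATG), the Neurod6 stretch 2 (CAAATG and CAGTTG), the Olig3 stretch 1 (CAACTG) and the Atoh1 stretch 0. In the full windows of 300 bases (250 before and 50 after the start), 9 of the 10 members had an entry, and of all 32851 RefSeq windows of that length 72.3% hold at least 1 CANNTG, which reads the same on both strands. Among more specific forms, CAGATG or its reverse complement CATCTG is in 17.2% of all windows and among the members only in that of Neurod2 (1 site), and CAGCTG is in 16.3% of all windows and only in 1 of the 3 windows of Tcf12. CAGGTG or CACCTG (20.2% of all windows) and CACGTG (7.15%) are in no window of a member. A match is a run of letters, not a shown binding site.

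The libraries were compared first for features that bear on the members. Chd7, the targeted gene, ranged from 120.81 to 272.06 TPM in the WT libraries, 136.77 to 181.30 in Het and 125.63 to 185.39 in Hom, and its log2 change in Hom was -0.11 (SE 0.20, adjusted p = 0.862). Within batch 1 it was higher in the libraries labelled Hom (log2 change 0.41, SE 0.11) and within batch 2 lower (-0.77, SE 0.16). The Het libraries moved alike (0.30 and -0.71), and the change of Hom against Het was -0.004. Among the WT libraries, Chd7 was at 120.81 to 151.68 TPM in batch 1 and at 203.25 and 272.06 in batch 2. The difference between batches was not called (limma interaction adjusted p = 0.127 for Hom and 0.445 for Het). A gene-level TPM counts reads from all exons, whether or not Cre removes them, so it does not check the deletion, and all directions below rest on the labels. WT 5 stood apart from the other WT libraries for these genes. It had the highest value of the 5 WT libraries for 10 of the 10 members, against 24.1% of all 17325 tested genes. Hom changes without it are therefore also given for Atoh1, Neurod1, Neurod2, Neurod6, Neurog2, Olig3 and Tcf4. The activity-induced bHLH gene Npas4, singled out after its values were seen, was at 68.52 TPM in WT 5 and at 0.55 to 3.71 in the other libraries. Markers of other cell types also differed between libraries, and no gene of those marker lists was at 0 in all libraries. The summed TPM of 10 endothelial markers was 42.4 to 315 in WT, 33.8 to 658 in Het and 166 to 490 in Hom. That of 10 astroglial markers was 445 to 1915 in WT, 602 to 1201 in Het and 351 to 714 in Hom. For 10 Purkinje cell markers it was 262 to 364, 221 to 269 and 193 to 220, in the same order. Lhx1 alone, a gene of the Purkinje list, had a mean of 160 TPM in WT, 152 in Het and 117 in Hom.

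In the libraries labelled WT, the members covered more than 2 orders of magnitude of TPM, a unit that takes transcript length into account. Neurod1 was the most abundant, at 816 ± 142 TPM (SD, n = 5), followed by the 3 E proteins, with Tcf4 at 446 ± 64.7, Tcf12 at 184 ± 10.8 and Tcf3 at 151 ± 16.7. Neurod2 had a mean of 117 ± 49.0, Neurod6 of 37.5 ± 16.6 and Atoh1 of 30.0 ± 11.8. Neurog2 (5.77 ± 2.29), Olig3 (3.39 ± 1.07) and Neurog1 (2.66 ± 0.90) were close to the filter. Neurod6 and Atoh1 overlapped in their ranges (25.03 to 66.00 and 21.26 to 50.58), as did Tcf12, Tcf3 and Neurod2, and Olig3 with both neurogenins, whereas Neurod1 and Tcf4 each lay above the full range of all lower members. Library by library, Tcf12 was above Tcf3 and Neurod2, and Neurog2 above Olig3 and Neurog1, in all 5 WT libraries. The order of Tcf3 and Neurod2, of Neurod6 and Atoh1, and of Olig3 and Neurog1 differed between WT libraries, so it is not set by the data.

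**Figure D1:**
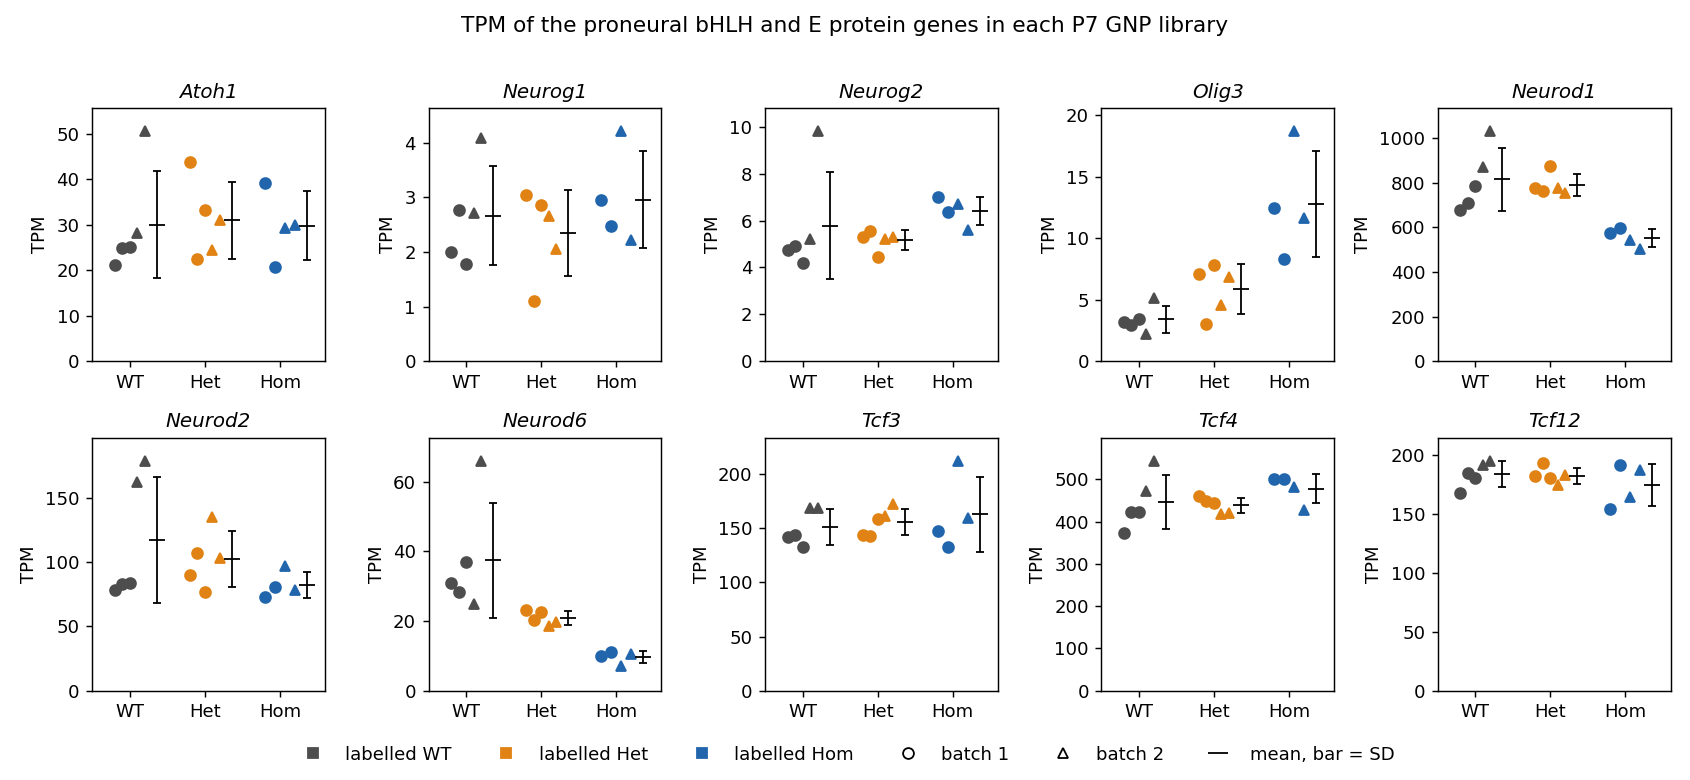
TPM (y axis, from 0) of each of the 10 genes in each library, by genotype label (x axis), with circles for batch 1 and triangles for batch 2 and the mean with its SD beside the points. Neurod6 falls in 3 separate ranges (25.03 to 66.00 in WT, 18.61 to 23.20 in Het, 7.16 to 11.06 in Hom), Neurod1 and Olig3 are separate between WT and Hom, and Atoh1 and the E proteins overlap in all 3 groups.

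The comparison of Hom with WT asked which of these bHLH genes change when both copies of Chd7 are targeted. Of the 10 members, 2 were lower (Neurod1 and Neurod6) and 1 was higher (Olig3) in the Hom libraries with a limma adjusted p below 0.05, the threshold for all calls. Over all genes tested, 1.41% were called lower and 1.27% higher. By unadjusted p, 4 members passed 0.05 (Neurod2 in addition), where 14.9% of all genes did. The ranges of all Hom and all WT libraries were separate for 3 members, which were the 3 called ones, and for 4.87% of all genes. The median log2 change of the 10 members was 0.04, beside 0.02 over all genes tested. Fewer cells of a type and less RNA per cell cannot be told apart in such bulk samples.

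Atoh1, the progenitor factor, was measured at 21.26, 24.95, 25.02, 28.16 and 50.58 TPM in WT 1 to 5, at 43.89, 22.41, 33.37, 24.38 and 30.97 TPM in Het 1 to 5 and at 39.27, 20.82, 29.31 and 29.99 in Hom 1 to 4. The groups overlapped fully, and a single library was high in each of them (WT 5, Het 1 and Hom 1). The log2 change was 0.01 in Hom (SE 0.25, 95% interval -0.53 to 0.55, adjusted p = 0.991) and 0.07 in Het (SE 0.23, interval -0.43 to 0.58, adjusted p = 0.981). These intervals leave room for changes of about the size seen for Neurod1 in either direction. Without WT 5 the Hom change was 0.23, and its sign turned within batch 2 alone (-0.34), so Atoh1 has no settled direction here.

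The neurogenins, which commit neural progenitors to a neuronal fate and are used outside the granule lineage in the cerebellum, were low in all groups. Neurog1 was at 1.99, 2.76, 1.77, 2.71 and 4.08 TPM in WT 1 to 5, at 1.11 to 3.05 in Het and at 2.21 to 4.21 in Hom. Its log2 change was 0.10 in Hom (95% interval -0.39 to 0.58, adjusted p = 0.894). Neurog2 was at 4.19 to 5.20 TPM in 4 WT libraries and at 9.81 in WT 5, at 4.46 to 5.55 in Het and at 7.02, 6.35, 6.69 and 5.61 in Hom 1 to 4. All Hom values lay above all Het values and above all WT values but that of WT 5. Its log2 change was 0.16 in Hom against WT (SE 0.17, adjusted p = 0.729) and 0.25 in Hom against Het (SE 0.17, adjusted p = 0.997). Without WT 5, the Hom change against WT was 0.36 (adjusted p = 0.165), so no change of Neurog2 was called with or without that library.

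Olig3, a factor of rhombic lip and dorsal hindbrain progenitors, was higher in the libraries labelled Hom. Its TPM was 3.21, 2.96, 3.40, 2.24 and 5.13 in WT 1 to 5, then 7.11, 2.99, 7.83, 4.59 and 6.82 in Het 1 to 5, while it was 12.50, 8.29, 18.70 and 11.68 in Hom 1 to 4. Every Hom library lay above every Het and WT library, and Het 2 and Het 4 lay within the WT range while the other 3 Het libraries lay above it. The change on the log2(TPM + 1) scale was 1.61 in Hom (SE 0.27, 95% interval 1.04 to 2.19, adjusted p = 0.00465), a 3.06-fold rise of TPM + 1, which understates the ratio of the means (12.8 ± 4.34, n = 4, against 3.39 ± 1.07, n = 5). The exact permutation test within batches gave p = 0.0167 (two-sided), the smallest that the 60 arrangements allow. The change was 1.42 in batch 1 alone and 1.83 in batch 2 alone, and 1.74 without WT 5. In Het it was 0.62 (SE 0.25, adjusted p = 0.749, exact permutation p = 0.117), which was not called. With the astroglial marker level in the model the Hom change was 1.43 (adjusted p = 0.0695), so the call was lost at a similar size. The summed TPM of 5 unipolar brush cell and rhombic lip markers was 133 to 171 in WT and 139 to 178 in Het. In Hom it was 200.4 to 240.0. By the group means, most of this sum in WT and in Hom was Otx2, a homeobox factor of the posterior granule lineage. Of the 4 tested markers, Otx2 and Wls were called higher in Hom, and Otx2 changed most (0.66). Eomes, the defining factor of unipolar brush cells, changed least (0.28) and was not called. The part of unipolar brush cells or rhombic lip cells in the level of Olig3 was not tested.

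Neurod1, the factor that accompanies the exit of granule cells from the cell cycle, was lower in the libraries labelled Hom. Its TPM was 679.30, 709.75, 787.60, 872.96 and 1031.57 in WT 1 to 5, then 775.93, 765.60, 875.62, 778.78 and 753.11 in Het 1 to 5, while it was 573.38, 595.69, 542.83 and 501.42 in Hom 1 to 4. All Hom values lay below all others, and the Het values lay inside the WT range. The mean fell from 816 ± 142 (n = 5) to 553 ± 40.8 (n = 4). The log2 change was -0.55 in Hom (SE 0.10, 95% interval -0.78 to -0.33, adjusted p = 0.0116, exact permutation p = 0.0167) and -0.03 in Het (SE 0.10, interval -0.25 to 0.18, adjusted p = 0.980). Without WT 5 the Hom change was -0.45 (adjusted p = 0.0172). With only the 2 genotypes compared in the fit it was -0.56 and just missed the threshold (adjusted p = 0.0505). It was -0.31 in batch 1 alone (adjusted p = 0.179) and -0.86 in batch 2 alone (adjusted p = 0.0690), with Hom below WT in both. Neurod1 overlaps the gene Cerkl on the same strand, which had a mean of 14.2 TPM, and how reads were divided between them was not checked. The RNA-seq analysis of the study names Neurod1 among its changed genes and lists Neurod6 among those lower in Hom. It used these same libraries, so neither listing is independent evidence. Other experiments of the study were not examined here.

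Neurod6, a factor of maturing excitatory neurons best known from the forebrain, showed the largest fall of the 10 members. Its TPM was 31.02, 28.22, 37.03, 25.03 and 66.00 in WT 1 to 5, then 23.20, 20.35, 22.65, 18.61 and 19.61 in Het 1 to 5, while it was 10.02, 11.06, 7.16 and 10.55 in Hom 1 to 4. No range overlapped another, with Het between WT and Hom. The log2 change was -1.77 in Hom (SE 0.23, 95% interval -2.26 to -1.28, adjusted p = 7.54e-04) and the exact permutation p was 0.0167. Without WT 5 the Hom change was -1.49 (adjusted p = 7.61e-05). In Het the change was -0.73 (SE 0.21, 95% interval -1.19 to -0.27), with an exact permutation p of 0.0167, the smallest that the 120 arrangements allow, but an adjusted p of 0.544 over all genes, so it was not called. Without WT 5 the Het change was -0.47 (adjusted p = 0.335). Het and WT ranges were separate for 1.04% of all genes. The exact Kruskal-Wallis test over the 3 genotypes on batch-removed values gave p = 2.38e-05 for Neurod6, 7.14e-04 for Olig3 and 0.00897 for Neurod1. The value for Neurod6 is the smallest that the 252252 arrangements allow. These arrangements mix the batches, and the batch effect was removed with the genotypes known, so these p-values are approximate and not comparable with the within-batch test.

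Neurod2, which acts in neuronal maturation and synapse formation, was not called in any contrast. Its TPM was 77.98, 82.98 and 83.58 in WT 1 to 3 but 161.86 and 178.54 in WT 4 and 5, while the Hom libraries had 72.96 and 80.72 in batch 1 and 96.84 and 77.86 in batch 2. The Het libraries had 90.19, 106.94, 76.69, 134.88 and 102.76. Hom values lay within or close to those of WT 1 to 3 and below those of WT 4 and 5. The log2 change in Hom was -0.47 (SE 0.16, adjusted p = 0.182, exact permutation p = 0.05), with -0.09 in batch 1 and -0.96 in batch 2, a difference between batches that was not called (interaction adjusted p = 0.132). Without WT 5 the Hom change was -0.36 (adjusted p = 0.329). With endothelial and Purkinje cell marker levels in the model it was -0.89 (adjusted p = 0.0223), and with the astroglial level -0.79 (adjusted p = 0.0403). Among the alternatives run, Neurod2 was called under these covariate settings only. The Purkinje marker sums of WT and Hom did not overlap, so the fit with that level can hardly tell it from genotype. The exact permutation tests were run for the 10 members and Chd7 in both contrasts with WT, 22 tests in all.

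The E proteins, the dimer partners, were not called in any contrast. Tcf4 was at 371.97, 422.70, 421.85, 471.43 and 543.48 TPM in WT 1 to 5, at 418.05 to 460.82 in Het and at 499.71, 500.52, 482.24 and 426.94 in Hom 1 to 4. Its log2 change in Hom was 0.10 (SE 0.09, 95% interval -0.10 to 0.30, adjusted p = 0.666), and it was 0.19 without WT 5 and 0.043 without WT 1. Tcf12 was at 167.32 to 194.86 TPM in WT, 174.02 to 192.74 in Het and 154.38 to 191.70 in Hom, with a change of -0.08 (SE 0.07, interval -0.23 to 0.07, adjusted p = 0.640). Tcf3 was at 132.39 to 169.14 TPM in WT, 143.12 to 172.00 in Het and 132.66 to 212.23 in Hom, with a change of 0.06 (SE 0.08, interval -0.11 to 0.24, adjusted p = 0.773). The groups overlapped for all 3, and the intervals exclude a change as large as that of Neurod1 (-0.55) in either direction. In Het the changes of the E proteins lay between -0.02 and 0.04. Tcf4 lies on chromosome 18 (GRCm38, 69343356 to 69689079, plus strand) and Tcf12 on chromosome 9 (71842688 to 72111871, minus strand), both far longer genes than the proneural ones.

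**Figure D2:**
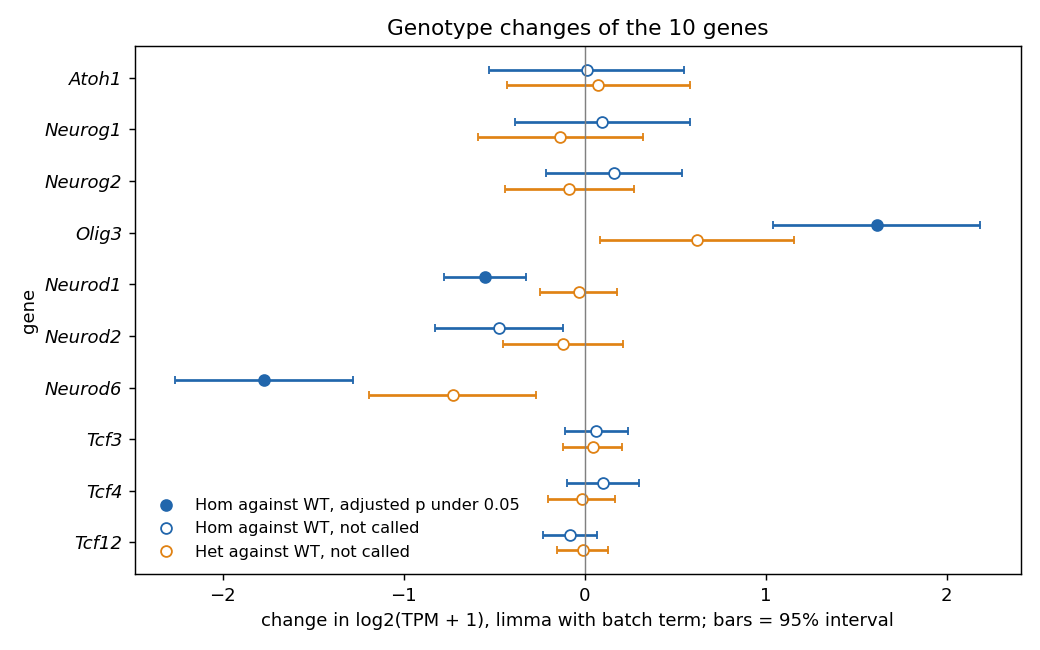
Change in log2(TPM + 1) (x axis) of each gene (y axis) in Hom against WT (blue) and Het against WT (orange), with 95% intervals and filled points for adjusted p under 0.05. The called genes are Neurod6 (-1.77), Neurod1 (-0.55) and Olig3 (1.61) in Hom, and the intervals of the E proteins are the narrowest.

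In the libraries labelled Het, no member was called against WT, in either direction (0 of 10), where 0% of all genes were called lower and 0.00577% higher. By unadjusted p, 2 members passed 0.05, Neurod6 (-0.73) and Olig3 (0.62), beside 6.08% of all genes. Both lay in the direction of their Hom change, but the Het and Hom contrasts share the WT libraries, so this is not separate evidence. The comparison of Hom with Het keeps the Cre driver the same. All libraries were fitted together, so the WT libraries enter it through the batch term and the estimate of the spread. It gave a log2 change of -0.52 for Neurod1 (SE 0.10, 95% interval -0.75 to -0.29, adjusted p = 0.0542), of -1.04 for Neurod6 (SE 0.23, interval -1.53 to -0.55, adjusted p = 0.0796) and of 0.99 for Olig3 (SE 0.27, interval 0.42 to 1.57, adjusted p = 0.190). None was called, where 0.277% of all genes were called lower and 0.15% higher, and 3 of the 10 members passed an unadjusted p under 0.05 beside 6.18% of all genes. The Hom and Het ranges were separate for 4 members (Neurod1, Neurod6, Neurog2 and Olig3), beside 2.16% of all genes. Without WT 5, Neurod1 (-0.51, adjusted p = 0.0158) and Neurod6 (-1.02, adjusted p = 0.00175) were called. With no WT library in the fit, both were called as well, Neurod1 at -0.50 (adjusted p = 0.0158) and Neurod6 at -1.02 (adjusted p = 0.0153). In the 13 fits that left out a library other than WT 5, neither was called. Their adjusted p reached 0.179 for Neurod1 and 0.215 for Neurod6.

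Atoh1 and Neurod1 were then set side by side, as progenitor and differentiation factor. The ratio of Neurod1 to Atoh1 TPM was 31.95, 28.45, 31.48, 31.00 and 20.40 in WT 1 to 5, 17.68, 34.16, 26.24, 31.94 and 24.32 in Het 1 to 5, but 14.60, 28.61, 18.52 and 16.72 in Hom 1 to 4. The Hom values were lower in 3 of 4 libraries than in any WT library, with Hom 2 inside the WT range, so the groups overlapped. In each group the ratio was lowest in the library with the highest Atoh1 (WT 5, Het 1 and Hom 1). Summed over the 7 proneural genes, the TPM was 820 to 1346 in WT, 921 to 1023 in Het and 639 to 725 in Hom. The sum of the 3 E proteins was 681 to 907, 753 to 786 and 774 to 859. The proneural sum divided by the E protein sum was 1.14 to 1.48 in WT, 1.18 to 1.31 in Het and 0.82 to 0.90 in Hom, so all Hom libraries lay below all others. Most of the proneural sum is Neurod1, which sets this ratio. Within the Neurod genes, Neurod6 made up 2.36% to 5.17% of the sum in WT, 2.0% to 2.61% in Het and 1.11% to 1.79% in Hom.

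**Figure D3:**
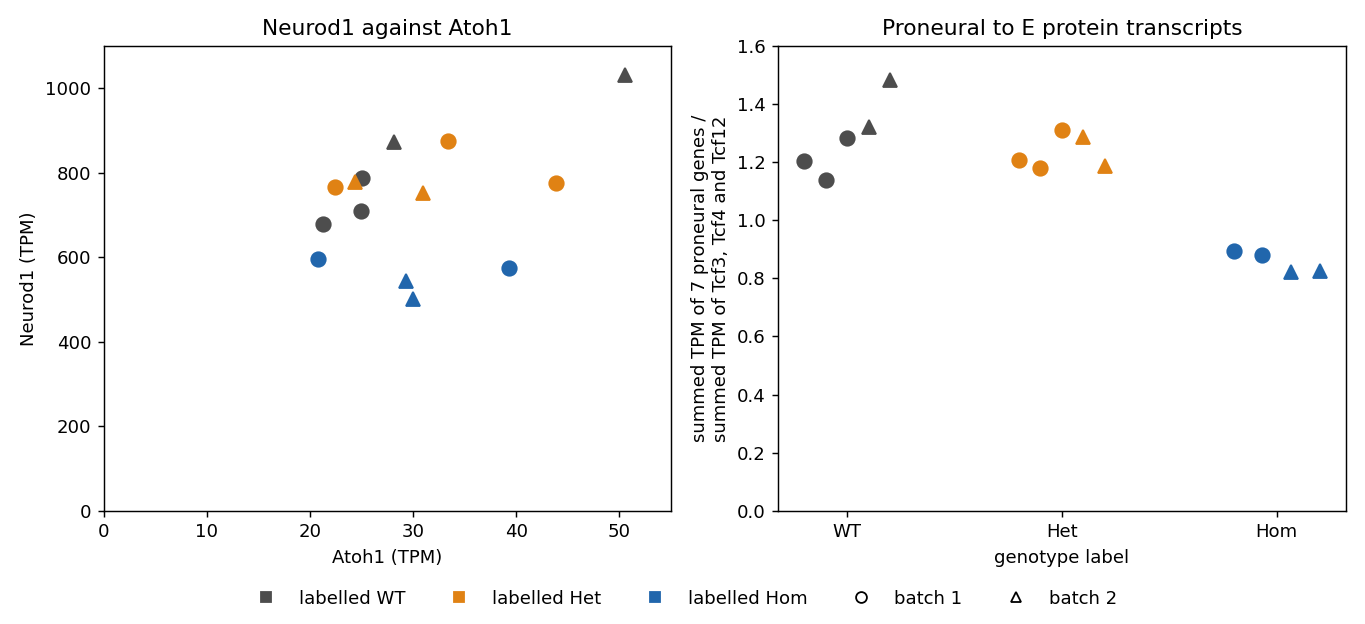
Left, Neurod1 (y axis, TPM) against Atoh1 (x axis, TPM) in each library; right, summed TPM of the 7 proneural genes divided by that of the 3 E proteins for each genotype label. The Hom libraries (blue) lie lowest on the Neurod1 axis at Atoh1 values shared with the other groups, and their proneural to E protein ratio of 0.82 to 0.90 is below that of all WT and Het libraries (1.14 to 1.48).

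The study sequenced its libraries in 2 batches, with WT 1 to 3, Het 1 to 3 and Hom 1 and 2 in the first. The Hom change of each member was compared between batches with an interaction term. No member passed at an adjusted p under 0.05 for Hom or for Het (0 of 10 each). At an unadjusted p under 0.05, 3 members passed for Hom (Neurod1, Neurod2 and Tcf4) and 3 for Het (the same 3), beside 17.2% and 9.3% of all genes. For Neurod1 the Hom change was 0.55 further below 0 in batch 2 (interaction -0.55, SE 0.14, adjusted p = 0.132), and for Neurod2 it was 0.88 further below 0 (interaction -0.88, SE 0.22, adjusted p = 0.132). Tcf4 changed sign, from 0.30 in batch 1 to -0.16 in batch 2 (interaction -0.46, SE 0.12, adjusted p = 0.134). Neurod6 (-1.51 and -2.10) and Olig3 (1.42 and 1.83) kept their direction in both batches. The 2 WT libraries of batch 2 had the highest WT values of Atoh1, Neurod1, Neurod2, Neurog2 and the 3 E proteins, and the batch 2 contrasts rest on them.

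**Figure D4:**
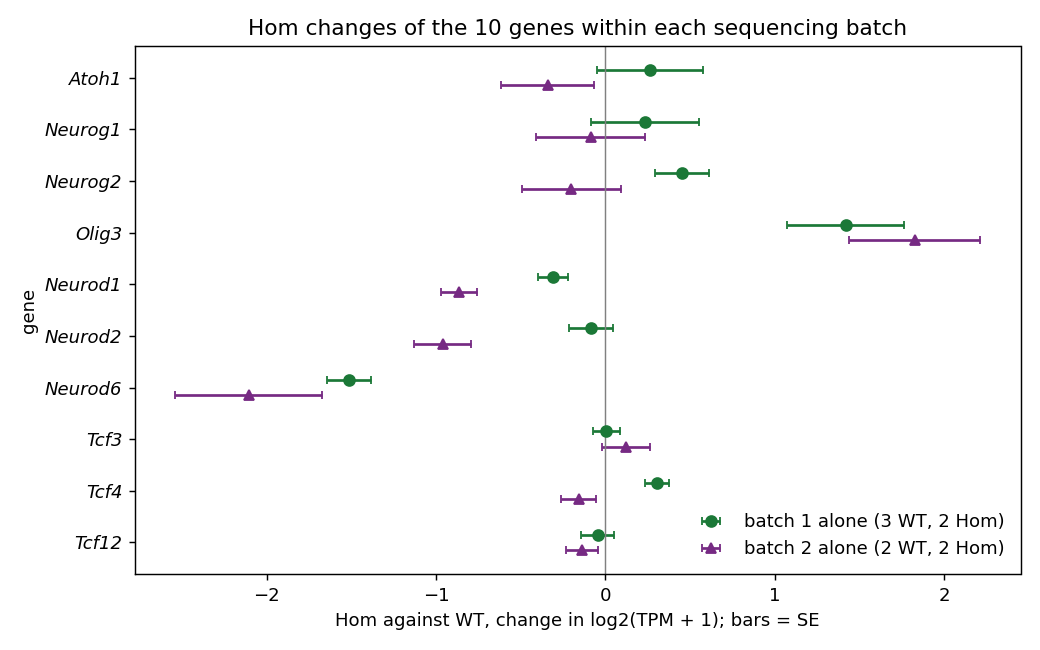
Hom against WT change in log2(TPM + 1) (x axis) of each gene (y axis) fitted within batch 1 alone (circles, 3 WT and 2 Hom libraries) and batch 2 alone (triangles, 2 WT and 2 Hom libraries), with SE. Neurod1, Neurod6 and Olig3 lie on the same side of 0 in both batches, while Neurod2 moves from -0.09 to -0.96 and Atoh1, Neurog1, Neurog2 and Tcf4 change sign.

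Factors that restrain or accompany the members were examined next, and few of them were called. Of 12 genes for Id, Hes and Hey proteins, 10 were tested and 0 were called in Hom by limma (2 lower and 1 higher with an unadjusted p below 0.05), with a median log2 change of -0.20 beside 0.02 over all genes. The 2 most abundant were Id2 (252 ± 63.6 TPM in WT, n = 5, and 314 ± 22.6 in Hom, n = 4, change 0.33, adjusted p = 0.270) and Hey1 (change 0.25, adjusted p = 0.593). In Het and in Hom against Het, 0 were called by limma, and 0 passed an unadjusted p under 0.05. Of 21 other neural bHLH genes, 17 were tested, and 1 was called in Hom, lower. That gene was Bhlhe22, a repressor of the Olig-related group used in neuronal differentiation, with 105 ± 9.53 TPM in WT and 73.8 ± 6.71 in Hom (change -0.50, SE 0.10, adjusted p = 0.0128). The 2 most abundant of the list were Nhlh2 (change -0.02, adjusted p = 0.957) and Nhlh1 (change -0.47, adjusted p = 0.131), both neuronal bHLH genes. In the other contrasts limma called 0 of the list (by unadjusted p under 0.05, 0 in Het and 2 lower in Hom against Het). The median of the list was -0.02.

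Genes of the progenitor and of the neuronal state gave the surroundings of the Atoh1 and Neurod1 values. Of 14 granule progenitor genes, all tested, 2 were higher in Hom and 0 lower, with a median change of 0.25. These were Ccnd1, a G1 cyclin induced by Hedgehog signalling (94.3 ± 14.7 TPM in WT, 166 ± 18.5 in Hom, change 0.80, SE 0.08, adjusted p = 1.11e-04), and Cxcr4, the chemokine receptor that holds GNPs in the external layer (73.7 ± 24.7 and 121 ± 17.6, change 0.73, SE 0.18, adjusted p = 0.0498). The proliferation genes Pcna (-0.04, adjusted p = 0.813) and Top2a (-0.02, adjusted p = 0.975), the most abundant of the list, were not called. Of 20 granule differentiation genes, 19 were tested, and 5 were lower and 1 higher, with a median of -0.22. The lower ones were Tubb3, neuronal tubulin (change -0.38, adjusted p = 0.0111), Syt1, a calcium sensor of synaptic vesicles (-0.64, adjusted p = 7.69e-04), Unc5c, a netrin receptor (-0.75, adjusted p = 0.0206), Slc17a7, a vesicular glutamate transporter (-0.71, adjusted p = 0.0439), and Cbln1, a secreted synapse organiser of granule neurons (-0.47, adjusted p = 0.00107). The higher one was Grin2c, an NMDA receptor subunit of mature granule neurons, at 0.57 ± 0.17 TPM in WT and 3.62 ± 1.12 in Hom (change 1.51, adjusted p = 0.00465). The most abundant genes not called were Cntn2 (-0.04, adjusted p = 0.897) and Nfib (-0.23, adjusted p = 0.361). Syt1, Cbln1 and Unc5c are also named or listed by the study from these libraries. In Het, limma called 0 genes of either list (by unadjusted p under 0.05, 1 higher progenitor gene and 3 lower differentiation genes). In Hom against Het it called 0 progenitor genes (1 lower and 4 higher by unadjusted p), and of the differentiation genes Tubb3, lower (-0.37, adjusted p = 0.0438), and Grin2c, higher (1.27, adjusted p = 0.0454).

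Of 10 granule lineage identity genes, 9 were tested and 0 were called in any of the 3 contrasts by limma (2 lower and 1 higher in Hom with an unadjusted p below 0.05), with Zic1 at -0.15 (adjusted p = 0.409) and Pax6 at -0.28 (adjusted p = 0.121), both transcription factors of the granule lineage. Of the 5 unipolar brush cell and rhombic lip markers reported, 4 were tested, and 2 were higher in Hom, with 0 called by limma in the other contrasts (1 higher by unadjusted p under 0.05 in each). Otx2, a homeobox factor of the posterior granule lineage (80.6 ± 14.8 TPM in WT, 128 ± 12 in Hom, change 0.66, SE 0.14, adjusted p = 0.0206), and Wls, a Wnt secretion factor of the rhombic lip (30.3 ± 3.90 and 45.8 ± 8.89, change 0.58, adjusted p = 0.0261), rose beside Olig3. Eomes, the defining factor of unipolar brush cells, had a change of 0.28 (adjusted p = 0.499) and Calb2 of 0.49 (adjusted p = 0.641). Of the marker lists for other cells, the 10 endothelial genes had changes from 1.18 to 1.92 in Hom with 0 called (9 higher at an unadjusted p under 0.05), the 10 astroglial genes had a median of -0.84 with 0 called (6 lower at an unadjusted p under 0.05), and 2 of 9 tested Purkinje cell genes were called lower (Pcp4 and Lhx1, named after their values were seen). Of the 7 inhibitory interneuron, 8 oligodendroglial, 8 microglial and 5 tested red blood cell markers 0 were called by limma, and by unadjusted p under 0.05 there were 0, 2 higher, 0 and 4 lower. With the astroglial level in the model, Neurod1 had a Hom change of -0.74 (adjusted p = 0.00615) and Neurod6 of -2.13 (adjusted p = 0.00128). With the endothelial and Purkinje levels, Neurod1 had -0.78 (adjusted p = 0.00423), Neurod6 -2.11 (adjusted p = 0.00452) and Olig3 1.73 (adjusted p = 0.00618). The Purkinje marker sums of WT (262 to 364 TPM) and Hom (193 to 220 TPM) did not overlap. That list also holds Lhx1, the gene closest to Neurod1 in the likeness described below. This fit can therefore hardly tell marker level from genotype, and a part of cell composition was not tested by it.

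**Figure D5:**
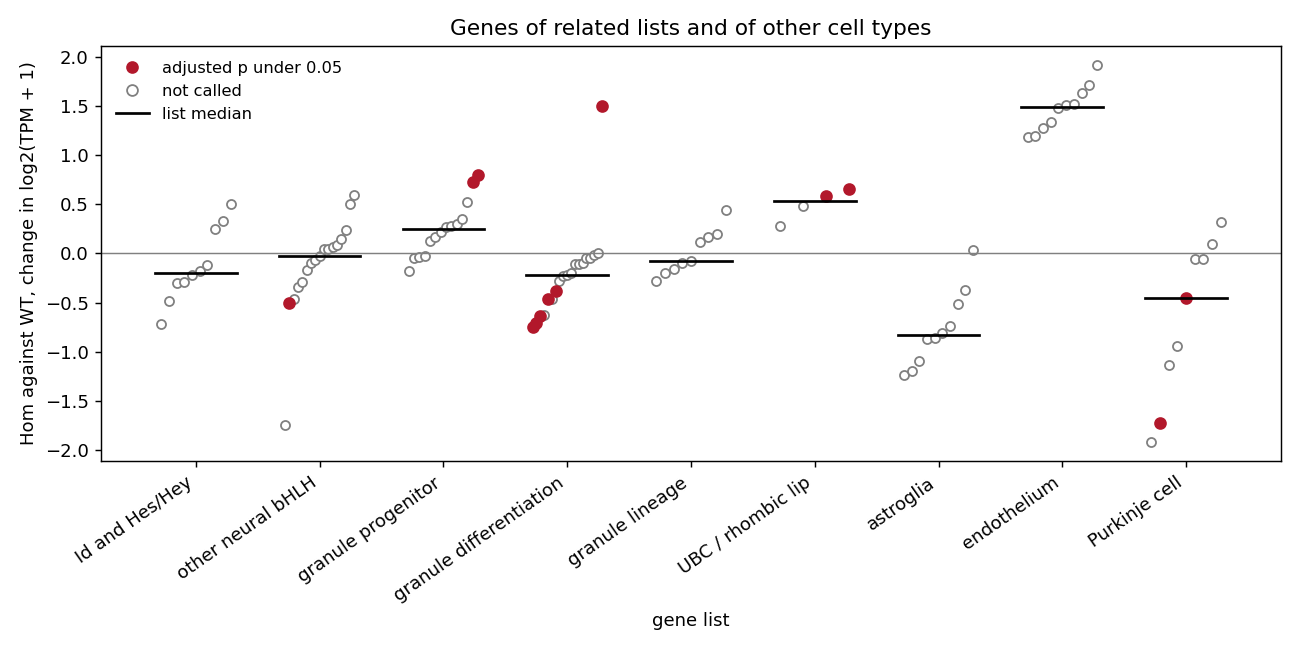
Change in log2(TPM + 1) in Hom against WT (y axis) of each tested gene in 9 gene lists (x axis), with red points for adjusted p under 0.05 and a bar for the list median. The granule progenitor list has 2 red points above 0, the differentiation list 5 below and 1 above, and the endothelial genes lie at 1.18 to 1.92 with 0 called.

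Likeness of pattern was described by Pearson's r over the 14 libraries, among 12292 genes with a mean TPM of at least 5. The values were log2(TPM + 1) with the batch effect removed and the genotype effect kept. These libraries share genotypes and batches, and no p is given. Closest to Atoh1 were Rfwd3 (r = 0.947), Sox9 (r = 0.941) and A430005L14Rik (r = 0.929). With WT 5 and Het 1 left out, the libraries farthest from the median of Atoh1, these were 0.876, 0.921 and 0.862. Sox9, a factor of glia and neural progenitors, is also in the astroglial list, and its mean was 25.3 ± 12 TPM in WT (n = 5), 24.0 ± 4.66 in Het (n = 5) and 25.0 ± 5.02 in Hom (n = 4), as flat across the genotypes as Atoh1. Closest to Neurod1 were Lhx1 (r = 0.937), Elmo1 (r = 0.930) and Ebf3 (r = 0.924), and without Hom 3 and Hom 4 these were 0.915, 0.866 and 0.860. All 3 were lower in the libraries labelled Hom, with log2 changes of -0.45 for Lhx1 (adjusted p = 0.0408), -0.60 for Elmo1 (adjusted p = 0.0132) and -0.68 for Ebf3 (adjusted p = 0.00465). Their likeness to Neurod1 favours this direction. Lhx1 is also in the Purkinje cell list.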

How the data were processed

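RNA-seq was made from 14 libraries of Percoll-isolated P7 GNPs, total RNA, single-end reads. The authors deposited TPM values per gene, which they estimated with RSEM 1.2.15 on Bowtie 1.0.0 alignments to the Ensembl mm10 transcriptome at default parameters, before any correction for batch. TPM keeps no depth. The study gives an approximate number of reads per sample but not that of each library, so no counting interval was computed. Columns with a control heading were read as WT, and Het 3 was placed in batch 1 as in the study's methods. Its title states no batch but is in the style of those of the batch 2 libraries. Log2(TPM + 1) of the 17325 genes that reached 1 TPM in 4 or more libraries was fitted with limma 3.58.1 in R 4.3.3 (genotype and batch as terms, all libraries, eBayes with an intensity trend), with Benjamini-Hochberg adjustment over all genes tested, and the pseudocount of 1 understates changes of low genes. Single members were also tested by exact permutation of genotype labels within batch and by an exact Kruskal-Wallis test (Python 3.11.15, scipy 1.17.1). Scripts were tested on simulated data. Positions are from GENCODE on GRCm38, and promoter windows from RefSeq.

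All 10 members, Chd7, the called genes and the 2 most abundant uncalled genes of 6 related lists, and the 3 genes most like Atoh1 and Neurod1 are named. The members and lists were chosen with earlier results of these data known. In the unipolar brush cell and rhombic lip list 1 gene is not reported here, so the counts and sums of that list are not those of the full list. Same-numbered libraries did not deviate together (correlations from -0.235 to 0.264), so numbers were not used as pairs. Alternatives changed the pseudocount, filter, scaling, batch term, samples or covariates, 1 at a time.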

Additional observations from a re-analysis of the deposited data

Results flagged for a closer look

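In 36 groups of 4 or 5 libraries checked (each member, Chd7 and the Neurod1 to Atoh1 ratio in each genotype), 3 held a library far from the others, where chance flags about 1 in 20 groups. Atoh1 was at 50.58 TPM in WT 5, with the other WT libraries at 21.26 to 28.16, a gap of 0.765 of the whole range. Neurog2 was at 9.81 TPM in WT 5, with the others at 4.19 to 5.20 (0.82 of the range). WT 5 had the highest WT value of all 10 members, and without it the Hom change on the log2 scale was 0.23 for Atoh1 and 0.36 for Neurog2 (adjusted p from limma 0.709 and 0.165). Neurod1 was at 875.62 TPM in Het 3, with the other Het libraries at 753.11 to 778.78 (0.79 of the range), and Het 3 is also the library whose deposit labels match the second batch.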

How the results depend on the processing

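The 3 calls in Hom against WT (Neurod1 and Neurod6 lower, Olig3 higher) remained 3 in every leave-one-out fit and under each pseudocount, filter and scaling. The count fell to 1 in batch 1 alone (Neurod6, lower) and 0 in batch 2 alone, with fewer libraries in each. With the replicate number as a block, which pairs libraries that did not deviate together (correlations -0.235 to 0.264), Neurod1 had -0.47 (adjusted p = 0.123), Neurod6 -1.48 and Olig3 1.65. Neurod1 also missed the threshold when only the 2 genotypes compared were fitted (-0.56, adjusted p = 0.0505). Against Het, 0 members were called in Hom, but 1 with median-ratio scaling, quantile normalization or the filter at a mean TPM of 5, 2 with only the 2 genotypes, with endothelial and Purkinje covariates or with the astroglia covariate (chosen after seeing the data), and 0 to 2 when libraries were left out in turn. 0 members were called in Het under all alternatives run, and for 0 members was a difference between batches called.

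All sign changes belong to members whose change was not called, most of them near 0, and the cause was not tested. For Hom against WT, Atoh1 reversed with the astroglia covariate (-0.32), in batch 2 alone (-0.34), with endothelial and Purkinje covariates (-0.29), with median-ratio scaling (-0.019), with 2 genotypes only (-0.010) and with quantile normalization (-0.014). The astroglia covariate gave -0.074 for Neurog1, -0.18 for Neurog2 and -0.087 for Tcf4, batch 2 alone gave -0.086, -0.20 and -0.16, the endothelial and Purkinje covariates gave -0.20 for Neurog2 and -0.13 for Tcf4, and the block gave -0.015 for Tcf3. For Het against WT, batch 1 alone gave 0.15 for Neurod1, 0.15 for Neurod2, 0.028 for Neurog1, 0.12 for Neurog2, 0.058 for Tcf12 and 0.15 for Tcf4. Atoh1 had -0.081 with the astroglia covariate, -0.45 in batch 2 alone and -0.34 with the endothelial and Purkinje covariates, and Tcf3 had -0.012 with Het 3 in batch 2, -0.023 in batch 2 alone and -0.0085 with those covariates. For Hom against Het, Atoh1 had 0.11 in batch 2 alone, 0.053 with the endothelial and Purkinje covariates and 0.083 with the block, and Tcf3 -0.081 in batch 1 alone and -0.059 with the block. Leaving out 1 library at a time gave -0.19 to 0.23 for Atoh1, -0.0089 to 0.23 for Neurog1 and -0.028 to 0.12 for Tcf3 in Hom against WT. It gave -0.083 to 0.28 for Atoh1, -0.092 to 0.058 for Neurod1, -0.24 to 0.0083 for Neurog1, -0.15 to 0.095 for Neurog2, -0.043 to 0.014 for Tcf12 and -0.079 to 0.063 for Tcf4 in Het against WT, and -0.26 to 0.085 for Atoh1 and -0.071 to 0.075 for Tcf3 in Hom against Het. TPM without read numbers gives no limit of detection for the low members Neurog1, Neurog2 and Olig3.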
